A study of Mus musculus with 15 samples.

Results

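HOX genes encode homeodomain transcription factors that give cells a position along the body axis. They sit in 4 clusters, HOXA to HOXD, in which every gene is transcribed in 1 direction, and genes at the same place in different clusters form paralog groups, from group 1 at the anterior end of the code to group 13 at the posterior end. Trithorax and Polycomb complexes act on the clusters in opposite directions, and a cell's set of active and silent HOX segments tends to persist from the place where its lineage arose. Acetylation of histone H3 at lysine 27 (H3K27ac), found at active promoters and enhancers, cannot share a histone tail with the Polycomb mark on the same lysine, so its position along a cluster can be read as a record of the segments in use.

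The members were the 39 RefSeq protein-coding genes whose symbols name a Hoxa, Hoxb, Hoxc or Hoxd gene, of 21000 protein-coding genes with a curated transcript: 11 in HOXA, 10 in HOXB, 9 in HOXC and 9 in HOXD. Their regions held 51 of the 122375 listed H3K27ac peaks when each cluster was taken with 100 kb on either side. The series profiled mouse fusion-positive rhabdomyosarcoma, a muscle-like tumor driven by the PAX3-FOXO1 fusion protein (P3F), with CUT&RUN, which cuts and sequences the DNA beside an antibody. It holds 15 libraries: 6 of H3K27ac and 3 of control IgG from MCP tumors, which carry Myf6-Cre with the floxed alleles Cdkn2a(Flox/Flox), the fusion knock-in Pax(3P3F/P3F) and the reporter R26-tdTom, and 3 of each from TCP tumors, which carry Tek-Cre with the same 3 loci. All values below come from the peak list of 1 library, MCP H3K27ac replicate 5, so MCP and TCP tumors were not compared, there was no replicate error and no test was made. Myf6-Cre acts in the skeletal muscle lineage and Tek-Cre in the endothelial lineage, P3F is expressed from the Pax3 locus once Cre has acted, both tumor models lack Cdkn2a in the recombined cells, and the profiled cells were live tumor cells sorted after digestion of the tumors.

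Each peak was listed with its position, its fold over the caller's background at the summit and its q-value. The number of fragments over a summit was recovered from fold and p, with a median of 13 over all peaks and 7 at the lowest. More fragments were needed where the caller's background was higher, so a start without a peak may still carry the mark. The labelled tumor type was checked against marker lists. Promoter peaks, meaning peaks within 2 kb of a start site, were listed for 2 of 12 myogenic markers, Pax3 with a fold of 18.1 and Myf6 with 5.97, and not for Myod1, Myog, Myf5 or Des, against 45.6% of all protein-coding genes. They were listed for 0 of 6 endothelial markers, 1 of 6 leukocyte markers (Cd68) and 2 of 6 fibroblast markers (Postn and Pdgfra). With the gene body and 10 kb around it searched, the counts were 6 of 12 myogenic, 5 of 6 endothelial, 3 of 6 leukocyte and 3 of 6 fibroblast markers, against 63.2% of all genes, so these lists did not set the myogenic markers above the others.

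The 6 promoters below show paralogs of groups 9, 11 and 13, of which the HOXA member had a promoter peak and the HOXD member had none. Each run is the 250 bases before a curated start, written 5′ to 3′ on the gene's own strand from RefSeq build GRCm38.p6 (mm10), with every CG dinucleotide, the usual target of DNA methylation, in capitals. RefSeq promoter sequence was matched for 22 of the 39 genes, and for Hoxd11 the more CG-rich of 2 starts is shown. The printed bases overlapped a listed peak at Hoxa11. At Hoxa9 and Hoxa13 they did not, and the promoter peaks lay elsewhere within 2 kb of the start.
Hoxa9, chr6:52227371-52227620, minus strand: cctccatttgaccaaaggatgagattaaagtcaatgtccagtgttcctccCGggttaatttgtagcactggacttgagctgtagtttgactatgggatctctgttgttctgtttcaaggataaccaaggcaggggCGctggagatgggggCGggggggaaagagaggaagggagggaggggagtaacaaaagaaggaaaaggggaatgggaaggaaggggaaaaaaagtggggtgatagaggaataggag
Hoxd9, chr2:74697513-74697762, plus strand: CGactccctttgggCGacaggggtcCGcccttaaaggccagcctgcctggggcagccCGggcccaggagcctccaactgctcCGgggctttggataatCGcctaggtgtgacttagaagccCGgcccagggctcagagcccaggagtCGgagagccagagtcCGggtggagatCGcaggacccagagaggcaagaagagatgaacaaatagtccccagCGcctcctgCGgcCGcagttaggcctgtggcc
Hoxa11, chr6:52245811-52246060, minus strand: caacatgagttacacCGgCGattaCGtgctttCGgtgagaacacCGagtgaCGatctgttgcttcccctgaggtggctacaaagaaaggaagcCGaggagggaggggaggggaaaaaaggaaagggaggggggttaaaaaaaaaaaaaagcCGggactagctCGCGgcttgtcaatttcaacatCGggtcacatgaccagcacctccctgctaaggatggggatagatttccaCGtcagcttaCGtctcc
Hoxd11, chr2:74682073-74682322, plus strand: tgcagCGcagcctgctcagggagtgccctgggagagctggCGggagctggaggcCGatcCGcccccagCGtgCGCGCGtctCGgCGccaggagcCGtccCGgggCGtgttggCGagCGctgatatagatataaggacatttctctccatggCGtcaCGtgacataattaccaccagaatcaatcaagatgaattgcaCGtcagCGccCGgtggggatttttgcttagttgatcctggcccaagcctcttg
Hoxa13, chr6:52260881-52261130, minus strand: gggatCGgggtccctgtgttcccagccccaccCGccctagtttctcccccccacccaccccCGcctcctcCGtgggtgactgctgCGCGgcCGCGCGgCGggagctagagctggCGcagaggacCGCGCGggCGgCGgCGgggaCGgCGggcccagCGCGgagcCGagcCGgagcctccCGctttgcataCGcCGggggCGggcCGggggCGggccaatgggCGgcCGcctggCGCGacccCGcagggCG
Hoxd13, chr2:74667975-74668224, plus strand: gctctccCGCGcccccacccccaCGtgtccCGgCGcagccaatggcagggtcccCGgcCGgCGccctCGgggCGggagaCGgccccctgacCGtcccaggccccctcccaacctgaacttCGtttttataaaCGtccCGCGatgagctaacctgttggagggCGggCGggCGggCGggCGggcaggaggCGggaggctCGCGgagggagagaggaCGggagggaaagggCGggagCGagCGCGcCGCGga
A group 13 start had 35 CG dinucleotides in these 250 bases in Hoxa13 and 31 in Hoxd13. In group 11 the order was 13 in Hoxa11 and 20 in Hoxd11, and in group 9 it was 3 in Hoxa9 and 13 in Hoxd9. The HOXD member with no peak was the richer in CG in groups 9 and 11 and the poorer in group 13. Groups 3 and 10, with the same division of peaks, are not printed. Within 500 bp of the start, Hoxa3 had 4.70 CG dinucleotides per 100 bp and Hoxd3 6.29, while Hoxa10 had 7.19 and Hoxd10 4.90. The part of CG content in which member had a peak was not tested.

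In this library H3K27ac peaks lay inside 1 of the 4 clusters, HOXA. Promoter peaks were listed for 9 of the 39 Hox genes (23.1%), against 45.6% of all protein-coding genes. All 9 were in HOXA, where they made up 81.8% of the 11 genes, and 0 of the 28 genes of HOXB, HOXC and HOXD had a promoter peak. With the gene body and 10 kb around it searched, 10 Hox genes had a peak, again only in HOXA, against 63.2% of all protein-coding genes, and Hoxa4 had none. Of the 13 paralog groups, 9 had a member with a promoter peak, and in each it was the HOXA member alone.

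**Figure D1:**
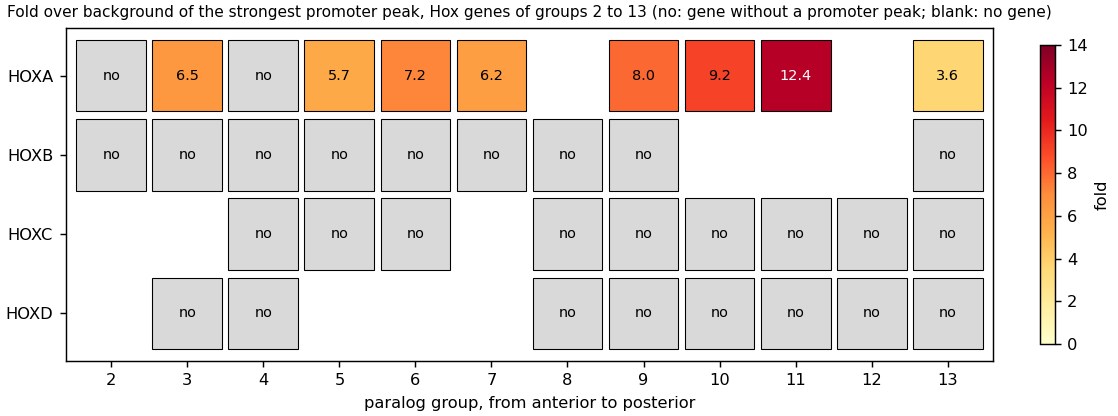
Each cell is a mouse Hox gene, by cluster (rows) and paralog group (columns, groups 2 to 13), with the fold over background of its strongest promoter peak in colour and digits. The 8 coloured cells are all in the HOXA row, from 3.6 in group 13 to 12.4 in group 11.

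The clusters differed as much over their full length. Between the first and the last gene, HOXA (106 kb) held 46 peaks that covered 20702 bp, or 19.6% of it. HOXB (chr11:96194316-96368254, 174 kb), HOXC (chr15:102921131-103036856, 116 kb) and HOXD (chr2:74668225-74765142, 96.9 kb) held 0 peaks each. With 100 kb on either side the counts were 50, 1, 0 and 0. At the mean peak density of its own chromosome a region of the same length would hold 18.2 peaks for HOXA, 29.7 for HOXB, 17.4 for HOXC and 15.4 for HOXD. The density of HOXA with its flanks was 164 peaks per Mb, against 59.4 on chromosome 6 and 44.9 over all chromosomes.

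The 3 clusters without peaks lay inside long peak-free stretches. No peak was listed for 585 kb around HOXB, for 441 kb around HOXC or for 596 kb around HOXD. The peaks on either side carried consecutive numbers in the caller's own numbering, so no listed peak was missing from these stretches. Stretches of at least 400 kb, a limit set after these lengths were seen, numbered 1017 and took up 39.9% of the chromosomes, and 20.0% of all protein-coding genes had every start inside one. The same was true of 28 of the 39 Hox genes, all those outside HOXA. The nearest summit lay 53.4 kb from the Hoxb13 start and 225 kb from the Hoxb1 start, the shortest and the longest such distance in these 3 clusters. Unknown bases made up 0% of each cluster. Repeats made up 24.6% of HOXB, 15.9% of HOXC, 14.4% of HOXD and 13.4% of HOXA, and with 100 kb flanks 28.2%, 20.3%, 26.6% and 25.5%. The part of repeats or of mappability in the peak-free stretches was not tested.

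Peaks returned farther out. From 100 to 500 kb beyond the cluster, the group 13 side of HOXB held 37 peaks and its group 1 side 31, and both sides of HOXC held 29. HOXD was the sparser, with 8 peaks on the group 13 side and 2 on the group 1 side over the same distance, and 16 and 61 peaks from 500 to 1000 kb. HOXA had the reverse profile: 436 peaks per Mb inside the cluster, and 20 per Mb in each adjoining 100 kb. Its group 13 side rose to 110 per Mb from 100 to 500 kb while its group 1 side stayed at 20 per Mb.

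**Figure D2:**
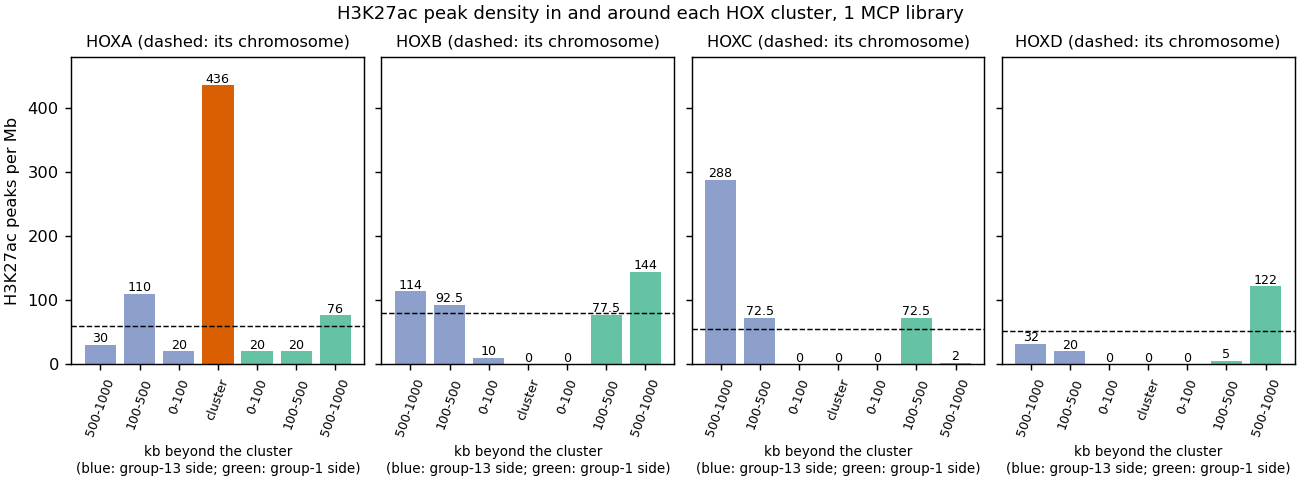
Bars give H3K27ac peaks per Mb inside each cluster (orange) and in 3 distance bins on its group 13 side (blue) and group 1 side (green), with the chromosome's own density dashed. HOXA reaches 436 per Mb inside and drops to 20 per Mb on both sides, whereas the bars for HOXB, HOXC and HOXD are at 0 inside and at 0 to 10 in the adjoining 100 kb.

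The flank peaks were few. For comparison, the medians over all peaks were a fold of 5.22 and 13 fragments. In the 100 kb before the group 1 end of HOXA the highest fold was 4.36, with 9 fragments, at chr6:52130983-52131117, between genes. Beyond the group 13 end it was 5.74, with 16 fragments, at chr6:52305372-52305963, also between genes, at −45040 bp from the Hoxa13 start. The peak near HOXB, at chr11:96140860-96140991 in the flank beyond Hoxb13, had a fold of 4.10 from 9 fragments. The remaining flank of HOXB and both flanks of HOXC and of HOXD held no peak.

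CG content at the start sites differed between the clusters without peaks. Within 500 bp of the start the median was 3.85 CG dinucleotides per 100 bp in HOXB, 4.90 in HOXC and 7.19 in HOXD. It was 6.19 in HOXA and 4.80 over all protein-coding genes. The part of CG content in the absence of peaks was not tested. All protein-coding genes were divided into 10 strata of 2100 genes by CG dinucleotides within 500 bp of the start, and the share with a promoter peak went from 3.52% in the lowest stratum to 72.6% in the highest. Over strata 5 to 10 it was 66.7%, and in stratum 5, which held 8 Hox genes, it was 52.9%. Of the Hox genes in these strata, 9 were in HOXA, 8 in HOXB, 7 in HOXC and 8 in HOXD, so 23 of the 28 genes without any peak nearby lay where most genes had one. Hoxd8 had 14.9 CG dinucleotides per 100 bp, the most among the Hox genes, and its nearest summit was 172 kb away. Hoxa7 and Hoxa9 had 2.20 and 2.60 per 100 bp, in stratum 4, and both had promoter peaks.

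**Figure D3:**
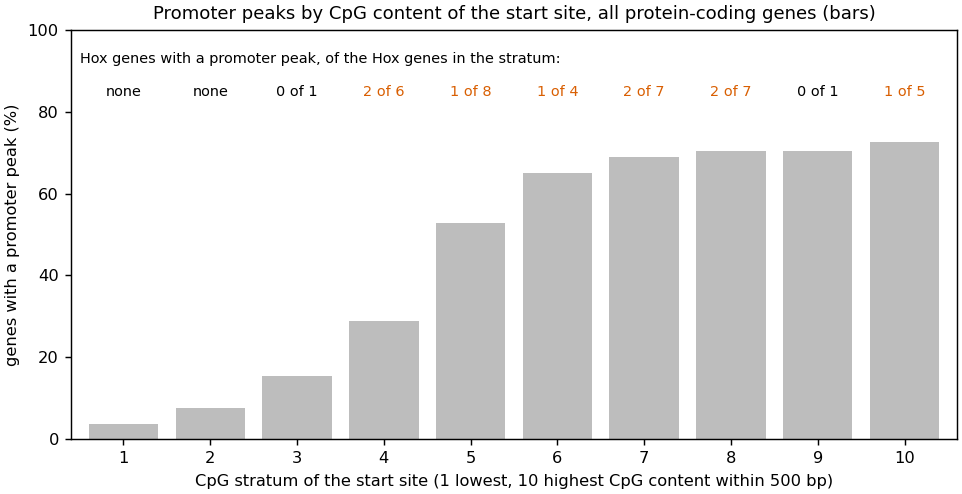
Bars give the share of protein-coding genes with a promoter peak in 10 equal strata of CG content within 500 bp of the start, and the row of counts above gives the Hox genes with a promoter peak of those in the stratum. The bars climb from 3.5% to 72.6%. The Hox counts are out of at most 8 genes in a stratum, such as 2 of 6 in stratum 4, so they are not shares to set against the bars.

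From Hoxa2 to Hoxa13 the peaks left a bare interval and then formed a dense block. All Hoxa genes are transcribed toward lower coordinates, so the order from left to right runs from anterior to posterior. The longest gap of the cluster, 42.9 kb with no peak, held the starts of Hoxa2 and Hoxa4. The block that followed was 39 peaks in 55.8 kb, from Hoxa5 to Hoxa13, and 34.8% of it was covered. The next longest gap, of 6.45 kb, lay between Hoxa11 and Hoxa13.

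**Figure D4:**
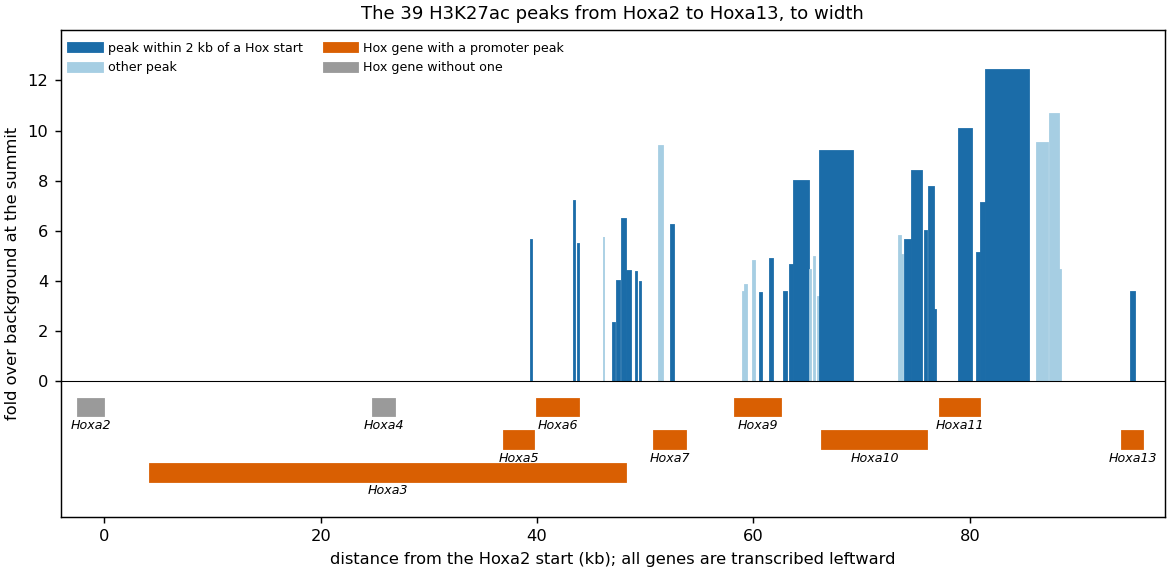
Each bar is 1 of the 39 HOXA peaks from Hoxa2 to Hoxa13, drawn to its width along the distance from the Hoxa2 start (kb), with its fold over background as height, and dark blue where it lies within 2 kb of a Hox start. No bar is drawn over Hoxa2 and Hoxa4, and the widest and tallest bars lie between Hoxa9 and Hoxa13.

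The covered share was highest between the posterior starts and lowest from Hoxa2 to Hoxa6. Between consecutive starts the covered share was 0% from Hoxa2 to Hoxa4, 0.776% from Hoxa4 to Hoxa5 and 5.19% from Hoxa5 to Hoxa6. It was 23.7% from Hoxa6 to the Hoxa3 start, 22.0% from there to Hoxa7 and 10.5% from Hoxa7 to Hoxa9. It was 53.1% from Hoxa9 to the distal start of Hoxa10, 43.3% from there to Hoxa11 and 43.995% from Hoxa11 to Hoxa13. No peak was shared by the windows of 2 Hox genes.

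Among the anterior genes, Hoxa2, which patterns the second branchial arch, had no promoter peak. Hoxa3, which acts in pharyngeal organ development, had 6 promoter peaks, the strongest at chr6:52212674-52213081 with a fold of 6.46 and 17 fragments, in an intron. These lay at its only curated start, 52213067, which is far upstream between Hoxa6 and Hoxa7. Of 4 further predicted Hoxa3 starts, the 3 from 52180119 to 52183608 had no peak within 2 kb.

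The central genes had few and narrow peaks. Hoxa4 had none, with its nearest summit 12.6 kb away. Hoxa5, needed for lung and cervicothoracic development, had 1 of 100 bp in its coding exon (chr6:52204282-52204381), with a fold of 5.65 from 12 fragments. Hoxa6 had 2, of which the stronger, also in a coding exon (chr6:52208236-52208374), had a fold of 7.19 from 16 fragments. Hoxa7 had 1 in its 5′ UTR (chr6:52217211-52217498), with a fold of 6.23 from 20 fragments. Hoxa7 had its nearest summit 1.13 kb from the start. The nearest to the Hoxa2 start was 3.59 kb away, outside the window and beyond the 3′ end of Hoxa2. A stronger peak, with a fold of 9.40 and 24 fragments, lay in the Hoxa7 intron beyond the window.

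The posterior genes, which specify limb, urogenital and caudal structures, carried the widest peaks, and among them both the highest and the lowest of the 9 folds. Hoxa9 had 5 promoter peaks, the strongest 1368 bp wide (chr6:52228598-52229965), with a fold of 7.99, 35 fragments and a summit between genes 1.73 kb upstream of the start. Hoxa10, which has 2 curated starts, had 6, the strongest 3009 bp wide (chr6:52231025-52234033) with its summit in a coding exon, a fold of 9.18 and 30 fragments. Hoxa11, which with Hoxa10 and Hoxa13 acts in limb and reproductive tract development, had 4. The strongest of these was the highest and widest peak of all 4 clusters: 4011 bp (chr6:52246308-52250318), with a fold of 12.4 and 41 fragments, a −log10 q of 28.1 and a summit 2.34 kb upstream of Hoxa11, in an intron of the antisense RNA gene Hoxa11os. Counting itself, 55 of the 122375 peaks were at least as wide and 1825 had at least as high a fold. Hoxa13 had 1, of 311 bp in its coding exon (chr6:52259744-52260054), with a fold of 3.58 from 11 fragments, the lowest of the 9 genes. The order of these folds rests on single summits of 11 to 41 fragments and has no replicate error.

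Set beside all genes with a promoter peak, the Hox values were ordinary in size except at the ends of their range. The median fold of the strongest promoter peak was 7.19 over the 9 genes and 7.24 over the 9569 genes of the genome that had one. Of these, 92.4% had a lower fold than Hoxa11, 73.7% a lower fold than Hoxa10 and 1.54% a lower fold than Hoxa13. A start lay inside a peak itself in 3 genes, Hoxa3, Hoxa6 and Hoxa10.

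The bases below reach 100 bp either side of the summit of the strongest HOXA peak, from the forward strand of the same build, with CG dinucleotides in capitals. They are shown because this site carried the highest fold of the 4 clusters and did not lie in an exon of a Hox gene.
Summit beside Hoxa11, chr6:52248051-52248251, plus strand: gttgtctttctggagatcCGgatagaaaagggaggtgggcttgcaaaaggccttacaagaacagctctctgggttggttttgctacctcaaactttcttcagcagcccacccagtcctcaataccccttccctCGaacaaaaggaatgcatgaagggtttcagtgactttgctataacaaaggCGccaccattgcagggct
This site held 3 CG dinucleotides.

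The 46 peaks inside HOXA were like the whole list in fold but differed in where they lay, in q-value and in fragments. A −log10 q of at least 5 was reached by 28 of them (60.9%) and by 47.9% of all peaks. Their median fold was 5.20 and that of all peaks 5.22, and their median width was 218 bp against 163 bp. Widths of at least 1000 bp were found in 5 of them (10.9%) and in 4.74% of all peaks. Their summits lay in exons of any kind in 34.8%, introns in 39.1% and between genes in 26.1%, against 5.33%, 61.5% and 33.2% of all peaks. Around the summit they had a median of 3.25 CG dinucleotides per 100 bp, against 1.00 over all peaks. The whole HOXA cluster had 2.98 per 100 bp, which is a mean over its length and not a median of windows. The part of the cluster's sequence in the value at the summits was not tested. HOXB, HOXC and HOXD had 2.09, 2.15 and 2.81. The caller's background was also higher, at 2 fragments or more under 27 of the 46 summits (58.7%) against 24.4% of all summits, and the median summits had 17 and 13 fragments. The part of this background in the HOXA values was not tested.

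Binding sequences for HOX proteins and their partners were not frequent in these peaks. In the 200 bp around the summit, read on both strands, TGATTNAT, a site for PBX with HOX, was found in 1 of 46 HOXA peaks (2.17%, 95% Wilson interval 0.385 to 11.3%) and in 3.09% of all peaks. TGACAG, a MEIS site, was in 1 (2.17%) and in 14.8% of all peaks, TAATTA, a homeodomain site, was in 2 (4.35%) and in 5.59%, and CAGCTG, an E-box used by myogenic factors, was in 4 (8.70%) and in 9.97%. TGACAG was the site whose share of all peaks lay outside the interval for the HOXA peaks (0.385 to 11.3%), but with the whole peak searched it was in 4 (8.70%) and in 18.6% of all peaks, inside the interval then found (3.43 to 20.3%). Neighbouring peaks of 1 cluster are not independent draws.

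As a description of clustering, chosen after the values were seen, peaks not wholly within 1 kb of a start were joined where they lay within the distance customary for super-enhancer ranking and ranked by the sum of fold times width. The 22 joined peaks from Hoxa3 to Hoxa13 (chr6:52210974-52260054) ranked 137 of 20840 joined regions, above the limit, set where the ranked curve turns, that 864 regions passed. With a shorter distance of 5 kb the stretch from Hoxa9 to beyond Hoxa11 (chr6:52223855-52253296) ranked 63 of 30479, and the other pieces of the longer region ranked 9359 and 20808.

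Promoter peaks of the other genes in these regions were also found in HOXA alone. This follows from the positions above and is not a separate result, since no peak was listed inside HOXB, HOXC or HOXD. Of 14 other genes with a start in the HOXA region, 5 had a promoter peak, among them Mira between Hoxa6 and Hoxa7, the microRNA gene Mir196b, and Hoxa11os. The strongest peaks of Mira, Mir196b and Hoxa11os were the Hoxa7 intron, Hoxa10 and Hoxa11 peaks already given. Hoxaas2, which starts beside Hoxa2, had none, nor did Hoxaas3, which starts between Hoxa4 and Hoxa5, nor did Hottip, a noncoding RNA just beyond Hoxa13, or the homeobox gene Evx1 farther on. Of 23 such genes in the HOXB, HOXC and HOXD regions, 0 had one, Hotair in HOXC and Evx2 next to HOXD included.

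The microRNA genes of the clusters follow the same division, which is not a separate result. Those in HOXB, HOXC and HOXD lie where no peak was listed, and the strongest peak near Mir196b is the Hoxa10 peak given above. Mature sequences (RefSeq) are given with the seed, bases 2 to 8, in capitals.
mmu-miR-196b-5p: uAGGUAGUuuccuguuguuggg
mmu-miR-196a-5p: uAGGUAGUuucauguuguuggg
mmu-miR-10a-5p: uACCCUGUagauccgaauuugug
mmu-miR-10b-5p: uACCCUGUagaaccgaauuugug
mmu-miR-615-3p: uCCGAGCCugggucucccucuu
The miR-196 members share the seed AGGUAGU and the miR-10 members the seed ACCCUGU. The precursor of miR-196b lies at chr6:52230081-52230165 between Hoxa9 and Hoxa10, with 6 peaks within 2 kb of its start, a highest fold of 9.18 and the nearest summit 0.062 kb away. The miR-196a genes, Mir196a-1 in HOXB and Mir196a-2 in HOXC, had their nearest summits 124 kb and 190 kb away. For the miR-10 genes, Mir10a between Hoxb4 and Hoxb5 and Mir10b inside the Hoxd4 gene, these distances were 176 kb and 151 kb. For Mir615, inside the Hoxc5 gene, it was 148 kb.

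The regulators and partners of HOX genes were then read from lists, each beside the 45.6% of all genes and the 66.7% of genes in CG strata 5 to 10. Of 9 TALE homeodomain proteins, which bind DNA with HOX proteins, 8 had a promoter peak, among them Pbx2 (fold 8.67), Pknox1 (7.80) and Meis1 (6.53), and Pbx4 had none. Of 11 Trithorax and H3K27 demethylase genes, which keep HOX genes active, 10 had one, among them Kdm6a (10.4) and Kmt2a (6.94), and Ash1l had none. Of 22 Polycomb genes, which keep HOX genes silent, 17 had one, led by Phc3 (10.8), Phc1 (10.4), Eed (10.1) and Phc2 (9.96), while Cbx2, Cbx6, Cbx8, Bmi1 and Phf19 had none. Most of these genes lay in strata 5 to 10: 8 of the TALE genes, 9 of the Trithorax and demethylase genes and all 22 Polycomb genes. The shares with a promoter peak were 88.9%, 90.9% and 77.3% in that order, and their differences from 66.7% were not tested.

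Upstream signals and related homeobox genes had fewer promoter peaks. In the retinoic acid list, 4 of 14 had a promoter peak, the receptors Rarg (13.01), Rara (10.0), Rxrb (6.94) and Rxra (6.08). The enzymes that make retinoic acid (Aldh1a1, Aldh1a2 and Aldh1a3) or break it down (Cyp26a1, Cyp26b1 and Cyp26c1) had none, nor did Rarb, Rxrg, Crabp1 and Crabp2. Of the 6 Cdx and ParaHox genes, relatives of the HOX genes of which the Cdx genes activate central and posterior HOX genes, 0 had one. Of 51 other homeobox genes of the same class, 5 had one (9.80%), among them Dbx1 (9.53), Nkx2-3 (8.67), Msx1 (6.94) and Barx2 (6.13). With the gene body and 10 kb around it searched, 8 of 14 retinoic acid genes had a peak, against 63.2% of all genes. The counts were then 0 of 6 for the Cdx and ParaHox genes and 11 of 51 for the other homeobox genes. The 81.8% in HOXA stood above the 9.80% of other genes of its class in this list, as a count with no test. Outside HOXA the count was 0 of 28. The Wilson intervals reached 27.8% in HOXB and 29.9% in HOXC and in HOXD. The 9.80% lay inside each interval, so these counts do not set the clusters without peaks below the class. The split between HOXA and the other clusters follows the peaks themselves, and neighbouring genes of a cluster are not independent draws.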

How the data were processed

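CUT&RUN for H3K27ac was carried out by the authors on nuclei of live cells sorted from MCP and TCP tumors. Per the labels, reads were processed with BWA, SAMtools and MACS2 and the build mm10, while the study's methods name bowtie and MACS1.4 against the IgG of each sample, so the control behind this list is not certain. The deposited list is a MACS2 peak file of 1 library, with a score (the whole part of 10 times −log10 q in 100% of peaks, largest q 0.0471), the fold over background at the summit as a ratio, −log10 of p and q as the authors' caller gave them, and the summit offset. The other 14 libraries were not used here.

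A promoter peak overlapped 2 kb either side of a curated RefSeq start (31603 starts, GRCm38.p6, the same build). Fragments per summit were recovered from the deposited fold and −log10 p by 1 scale for the library (0.885, with fold taken as scaled fragments plus 1 over background plus 1), which gave whole numbers within 0.001 on −log10 p in 99.999% of peaks and in 0% of sampled peaks when the scale was 3% off. The list gives no library total, so depth is known only through these fragments, and intervals cover counting error only. Overlap and recovery code was tested on simulated data. Python 3.11.15, pandas 2.3.3, numpy 2.4.6, scipy 1.17.1 and matplotlib 3.10.9 were used.

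The members, gene lists, motifs and limits were chosen with earlier results of these data known. Every Hox gene is counted. Full values are given for the strongest promoter peak of each Hox gene, of each cluster and of each 100 kb flank, and genes of other lists are named only up to the 4 with the highest fold and those without a peak. A few genes that this rule would name are not reported here. Windows, flanks, stricter peak lists, merged peaks and other start annotations were tried as alternatives, those with predicted transcripts, GENCODE M21 starts and a 5 kb joining distance after the data were seen.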

Additional observations from a re-analysis of the deposited data

How the results depend on the processing

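The 9 Hox genes with a promoter peak became 8 with a 1 kb window (without Hoxa7), 10 with a 5 kb window (with Hoxa2), 8 at a −log10 q of at least 5 (without Hoxa13), 7 in the strongest 25% of peaks (without Hoxa5 and Hoxa13) and 9 with the summit required in the window, with only the gene record's 5′ end, with predicted transcripts and with GENCODE M21 starts. In every one of these settings 0 genes of HOXB, HOXC and HOXD were among them. The share of all protein-coding genes was 43.5% with 1 kb, 49.1% with 5 kb, 37.9% at the stricter q, 29.3% in the strongest 25% and 43.3% with gene record ends. The 51 peaks in the 4 regions became 91 with 200 kb flanks, 31 with peaks within 150 bp merged, 29 at the stricter q and 16 in the strongest 25%. The HOXA density of 164 per Mb became 436 with no flanks, 243 with 50 kb flanks, 109 with 200 kb flanks, 98.2 with merged peaks, 94.9 at the stricter q and 52.4 in the strongest 25%. The 59.4 per Mb of chromosome 6 and 44.9 of all chromosomes come from the full list. Of that list 47.9% reached the stricter q, so they are not baselines for the merged or filtered densities. The HOXB density of 2.67 per Mb became 0 with no flanks, with 50 kb flanks, at the stricter q and in the strongest 25%, and 43.6 with 200 kb flanks, and that of HOXC went from 0 to 19.4 with 200 kb flanks. The covered share of HOXA was 16.8% at the stricter q and 14.4% in the strongest 25%. The strongest promoter fold changed for 1 of 8 Hox genes with 1 kb (Hoxa9, 4.89) and for 5 of 9 with 5 kb. With 5 kb Hoxa2 gained one of 8.29, from a peak beyond its 3′ end. With whole peaks searched, the 4 motif shares in HOXA stayed inside the intervals found around the summits. Joining peaks within 5 kb split the HOXA region that ranked 137 of 20840, and its highest piece ranked 63 of 30479. No paired analysis was possible because a single library gave every value. No listed summit had fewer than 7 fragments, and more were needed where the caller's background was higher. Weaker acetylation could therefore go unlisted, and the differences between clusters have no replicate error.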
